A study of Mus musculus with 3 samples.

Results

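The genes described here are 9 early response genes in 3 groups: Egr1, Egr2 and Egr3; Nr4a1, Nr4a2 and Nr4a3; and Ier2, Ier3 and Ier5. They were chosen by name, and all 9 were found among the 27088 genes of the table and passed the filter on low values, as did 12433 genes in all. Their levels were measured by RNA sequencing of splenic B cells, isolated by cell sorting, of female BALB/c mice, which were 6 weeks old at the start and are labelled as 13 weeks old. The PBS and the SJMHE1 group were both sensitized by intraperitoneal injection with 10 μg ovalbumin (OVA) and 2 mg aluminium hydroxide on days 0, 7 and 14. Both were then challenged through the nose with 100 μg OVA daily from day 21 to day 27 and again from day 29 to day 35, which is a model of allergic rhinitis. The groups differed in what was injected on days 0, 14 and 28. The SJMHE1 group received 10 μg of SJMHE1, a peptide of the parasite Schistosoma japonicum, emulsified in incomplete Freund's adjuvant, and the PBS group received phosphate buffered saline without the adjuvant, so the peptide and the adjuvant cannot be told apart. Spleens were taken on day 36. The samples of 3 mice were mixed within each group and gave 1 library per group, so the 2 libraries carry no replicate error, no test between groups was possible, and every difference below is a description of these 2 libraries. The Control group is not analysed here.

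Early response genes are transcribed within minutes of a stimulus, without new protein being made first, and their RNA is short-lived. In B cells they are best known as a readout of signals through the antigen receptor, CD40 and Toll-like receptors. The Egr genes encode zinc finger transcription factors that are switched on largely through the ERK kinases and serum response factor (SRF), which binds a DNA element called the CArG box. The Nr4a genes encode orphan nuclear receptors, of which Nr4a1 (Nur77) is widely used as a reporter of antigen receptor signalling in lymphocytes and restrains the response of chronically stimulated B cells. Their transcription is driven by calcium and cAMP signals through CREB and MEF2 factors, and CREB binds the cAMP response element. The Ier genes are named for their rapid induction alone: Ier2 and Ier5 encode related proteins, whereas Ier3 is unrelated to them.

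The promoters of the Nr4a genes and of Egr2 are shown because they differ in part in the response elements they hold. Promoter windows came from RefSeq on GRCm38.p6 and cover the 250 bases before a transcript start. In all, 10 windows of 6 genes (Egr2, Nr4a1, Nr4a2, Nr4a3, Ier3 and Ier5) matched by symbol. Egr1, Egr3 and Ier2 had no window, so Egr2 is the only Egr gene described here. Capitals mark the half-site of the cAMP response element, TGACG or its reverse complement CGTCA, and in Egr2 also the CArG box.
Nr4a1, chr15:101266596-101266845, plus strand, before the start of a shorter transcript and within an intron of the longer one: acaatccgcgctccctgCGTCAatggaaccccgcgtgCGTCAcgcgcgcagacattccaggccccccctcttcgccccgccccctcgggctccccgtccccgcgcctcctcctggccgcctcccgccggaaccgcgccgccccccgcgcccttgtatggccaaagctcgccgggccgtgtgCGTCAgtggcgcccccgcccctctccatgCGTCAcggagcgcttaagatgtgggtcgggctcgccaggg
Nr4a2, chr2:57124004-57124253, minus strand, directly before the gene: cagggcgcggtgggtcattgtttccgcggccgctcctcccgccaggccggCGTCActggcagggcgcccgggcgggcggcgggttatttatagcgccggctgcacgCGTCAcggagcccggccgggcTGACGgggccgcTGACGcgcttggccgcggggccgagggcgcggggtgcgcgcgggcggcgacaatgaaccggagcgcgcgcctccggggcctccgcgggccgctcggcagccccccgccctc
Nr4a3, chr4:48045055-48045152, plus strand, the 98 bases of the window that precede the first annotated exon: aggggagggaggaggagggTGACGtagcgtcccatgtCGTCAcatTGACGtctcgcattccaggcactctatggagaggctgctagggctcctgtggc
Egr2, chr10:67537619-67537868, plus strand, before the start of a transcript that begins within the gene: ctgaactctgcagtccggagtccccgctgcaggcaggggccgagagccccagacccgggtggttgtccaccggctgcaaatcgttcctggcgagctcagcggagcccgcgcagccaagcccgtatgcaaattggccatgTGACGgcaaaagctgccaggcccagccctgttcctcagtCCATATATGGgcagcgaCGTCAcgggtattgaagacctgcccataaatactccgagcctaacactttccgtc

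The windows of Nr4a1, Nr4a2 and Nr4a3 each held 4 half-sites, of which 3 lie in the printed stretch of Nr4a3. Among 32851 windows of all genes, 17.8% held at least 1 half-site, and 16 windows (0.049%) held 4 or more. The number of copies and the motifs were chosen after the windows had been seen, and the 3 Nr4a windows are among those 16. All shares given here are over windows of any base composition and were not matched to that of the Nr4a windows. The printed Egr2 window held 2 half-sites with a CArG box between them, 72 to 63 bases before the start. A CArG box was found in 1.47% of all windows and in 4 of the 10 windows listed, all of them of Egr2, and 3 of these 4 overlap and share the same box. The EGR site, GCGNGGGCG on either strand, was found in 4.70% of all windows and in those of Nr4a1 and Nr4a2, 60 to 52 and 74 to 66 bases before the start. One other window of Egr2 matched the NF-kB site, which 5.0% of all windows did. The full cAMP response element TGACGTCA (1.55% of all windows, each one also counted as a half-site) was not found in the 10 windows. The AP-1 site TGANTCA (6.75%), the NBRE AAAGGTCA (1.34%), the heat shock element GAANNTTC (6.69%), the GAS element TTCNNNGAA (7.02%) and the ETS site CCGGAAGT (2.88%) were searched on both strands, and the TATA box TATAAA (7.59%) on the strand of the gene, with no match in the 10 windows. These matches describe the letters of the windows and not bound sites.

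**Figure D1:**
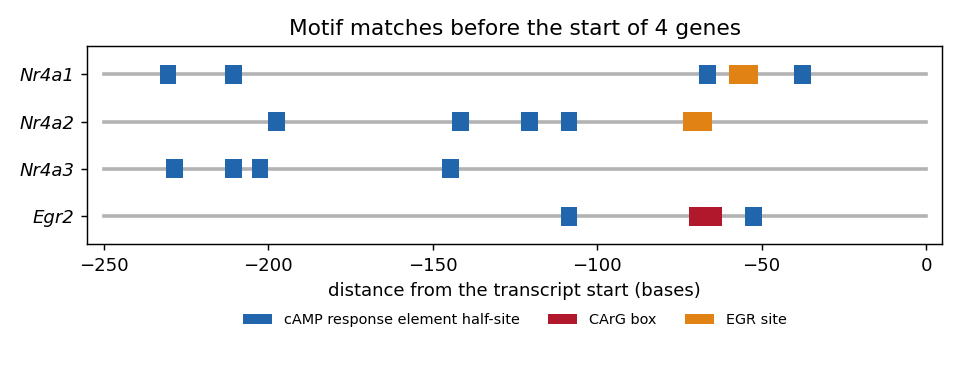
Positions of motif matches in the 250 bases before the start of 1 transcript each of Nr4a1, Nr4a2, Nr4a3 and Egr2; the x axis gives the distance from the transcript start in bases. The Nr4a windows each hold 4 half-sites of the cAMP response element, and the Egr2 window holds 2 with a CArG box between them. In the Nr4a3 window, only 3 of the 4 lie before the first annotated exon.

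The PBS library held 48267168 counts and the SJMHE1 library 51280237, and the 9 genes took 0.375% and 0.42% of them. Levels are given as FPKM, the fragments counted on a gene scaled by its transcript length and by the size of the library, and differences as the log2 ratio of the FPKM of the SJMHE1 library to that of the PBS library. The names PBS and SJMHE1 beside a value stand for the library of that group, and where a gene has a pair of values the PBS value comes first. The bracketed range is a 95% Clopper-Pearson interval made from both counts, which covers counting error only, not differences between mice or libraries. A ratio was called past the threshold when it lay above 1 or below -1. B cell genes were abundant in both libraries, with a summed FPKM of 7551 and 7288 over 11 markers, none of them past the threshold. The antigen receptor component Cd79a stood at 835.02 and 835.2. The log2 ratios of the 11 ran from -0.14 for Ebf1, at 22.64 and 20.5, to 0.68 for the complement receptor Cr2, at 136.27 and 218.29, with a median of -0.01, and 5 were above 0 and 6 below. In a bulk library, fewer cells of a type and less RNA per cell cannot be told apart.

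Levels of the 9 genes spanned a wide range. Egr1 was the highest of them in both libraries and Nr4a3 the lowest. The order in the PBS library was Egr1, Ier5, Nr4a1, Ier2, Egr3, Egr2, Nr4a2, Ier3 and Nr4a3. The SJMHE1 library had the same order except that Ier2 and Nr4a1 exchanged the third and the fourth place. Neighbours in the order had counting intervals that did not overlap, with 1 exception: in the PBS library Ier3 at 3.16 FPKM (lower bound 2.73) and Nr4a3 at 2.65 (upper bound 2.83) were not separated. These intervals cover counting error only. The order of different genes also depends on the transcript length used for each, which was not varied.

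**Figure D2:**
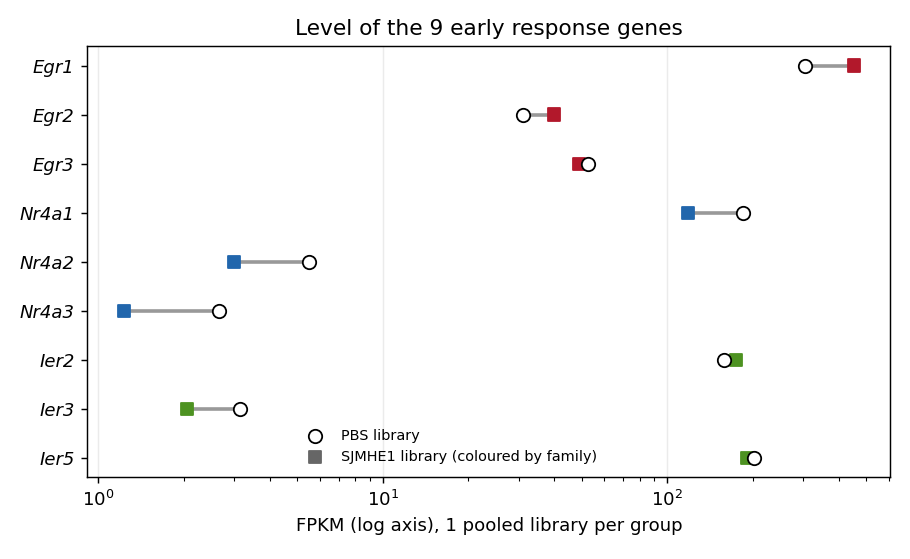
FPKM of the 9 genes on a log axis, with open circles for the PBS library, coloured squares for the SJMHE1 library and a line joining the 2 values of a gene. Egr1 and Egr2 lie further right in the SJMHE1 library, and Nr4a1, Nr4a2, Nr4a3 and Ier3 further left.

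Egr1 and Egr2 were higher in the SJMHE1 library and Egr3 was near its PBS level. Egr1, the most abundant of the family and a direct target of the ERK pathway, lies at chr18:34859823-34864984 on the plus strand and has 2 exons. Its FPKM was 305.06 for PBS and 452.37 for SJMHE1, from 75082 and 117857 counts. This is 1.48 times as high, a log2 ratio of 0.57 [0.56 to 0.58], and 94.0% of the genes tested had a lower ratio. Egr2 (chr10:67535475-67542188, plus strand, 2 exons), which together with Egr3 regulates antigen receptor responses in lymphocytes, stood at 31.07 for PBS and 40.09 for SJMHE1. The SJMHE1 value was the higher by 0.37 on the log2 scale [0.32 to 0.42], above 88.9% of the genes tested. Egr3 (chr14:70077203-70082614, plus strand, 2 exons) did not share this direction. Its FPKM was 52.45 for PBS and 48.89 for SJMHE1, a log2 ratio of -0.10 [-0.14 to -0.07], and 36.9% of the genes tested lay below it. None of the 3 was past the threshold. Summed over the family, the counts scaled to library size (CPM) were 1938 and 2697, a log2 ratio of 0.48 [0.46 to 0.49], and Egr1 supplied most of these counts.

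All 3 Nr4a genes were lower in the SJMHE1 library. The less abundant the gene, the lower its ratio, although the intervals of Nr4a2 and Nr4a3 overlap. Nr4a1 (chr15:101254269-101274795, plus strand, 8 exons in its main coding transcript) was the abundant one, at 184.63 FPKM for PBS and 117.85 for SJMHE1, from 35563 and 24029 counts. Its log2 ratio of -0.65 [-0.67 to -0.62] means a PBS level 1.57 times the SJMHE1 level, and 6.84% of the genes tested had a lower ratio. Nr4a2, also called Nurr1 (chr2:57106830-57124003, minus strand, 8 exons), was a gene of low level, at 5.49 and 3.01 FPKM from 1225 and 712 counts. Its ratio of -0.87 [-1.0 to -0.73] lay just short of the threshold, with 4.6% of the genes tested below it. Nr4a3, also called Nor1 (chr4:48045153-48086445, plus strand, 8 exons), stood at 2.65 FPKM for PBS and 1.23 for SJMHE1, from 872 and 429 counts. It was the 1 gene of the 9 past the threshold, with a log2 ratio of -1.11 [-1.28 to -0.94], and its interval reaches to the other side of -1. The CPM of the family summed to 780 and 491, a log2 ratio of -0.67 [-0.69 to -0.65].

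Nr4a genes are also expressed in T cells, NK cells and myeloid cells, and markers of some of these cells moved in the same direction. Of 12 T cell markers, 11 were past the threshold towards lower levels, with a median log2 ratio of -2.11 and a summed FPKM of 68.4 for PBS and 34.9 for SJMHE1, of which the kinase Lck made up 27.92 and 25.19. No T cell marker was at 0 in either library. NK cell markers summed to 16.8 and 7.02, with 4 of the 5 tested lower past the threshold, and dendritic cell markers to 8.13 and 3.78, with 2 of the 3 tested lower past the threshold and Batf3 at 0 in the SJMHE1 library. Macrophage markers summed to 119 and 64.1, mostly through Lyz2 at 88.79 and 37.4, with 2 of the 9 tested higher and 1 lower past the threshold. Neutrophil markers summed to 419 and 494, a sum carried by S100a9 and S100a8, although 5 of the 8 were below 0 and the median log2 ratio was -0.27. Erythroid markers summed to 153 and 201, with all 8 above 0 and a median of 0.52. In both lists 0 of 8 were past the threshold. Plasma cell markers, which belong to cells of the B lineage, summed to 654 and 549, with 1 of 7 lower past the threshold. The part of these other cells in the ratios of the Nr4a, Egr and Ier genes was not tested.

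The Ier genes went in both directions and summed to nearly the same level. Ier2 (chr8:84661331-84662854, minus strand), a nuclear regulator of transcription made from a single exon, stood at 158.25 FPKM for PBS and 174.04 for SJMHE1. Its log2 ratio was 0.14 [0.10 to 0.17], with 71.3% of the genes tested below it. Ier3 (chr17:35821684-35822923, plus strand, 2 exons), also known as IEX-1 and a regulator of cell survival under stress, was at 3.16 and 2.05 FPKM. These values rest on 196 and 135 counts, the fewest of the 9 genes, and the log2 ratio of -0.62 had the widest interval [-0.95 to -0.30]. Ier5 (chr1:155096361-155099636, minus strand, 1 exon) was the second most abundant of the 9 genes in both libraries, at 202.16 and 189.9 FPKM, with a log2 ratio of -0.09 [-0.11 to -0.07]. The 3 genes together had a CPM of 1031 and 1008, a log2 ratio of -0.033 [-0.051 to -0.015], whereas their summed FPKM was 363.57 and 365.99, so the direction of the sum depended on the measure.

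Across the 9 genes, 3 ratios were above 0 and 6 below, with a median of -0.10, while the median of all genes tested was -0.01 and 47.7% of them were above 0. The count past the threshold was 0 of 9 higher and 1 of 9 lower. Over all genes tested, 302 (2.43%) were higher and 444 (3.57%) lower past the threshold. Among the 9900 protein-coding genes tested, 89 were higher and 171 lower. All 9 genes are protein-coding, and the count among them rests on Nr4a3 alone. No counting interval of the 9 included 0, and none lay wholly beyond the threshold. The spread of ratios narrowed with level. From the 5th to the 95th percentile, ratios ran from -0.82 to 0.64 over all genes tested, and from -0.41 to 0.50 over the 371 genes with at least 100 FPKM in both libraries. Egr1 and Nr4a1, which both belong to those 371, lay outside that range on opposite sides, while Ier2 and Ier5 lay within it. Egr2, with its ratio of 0.37, lay just above the range from -0.38 to 0.34 of the 4143 genes with at least 10 FPKM in both libraries, and Egr3 within it. For Nr4a2, Nr4a3 and Ier3, of lower level, no range matched to level was taken.

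**Figure D3:**
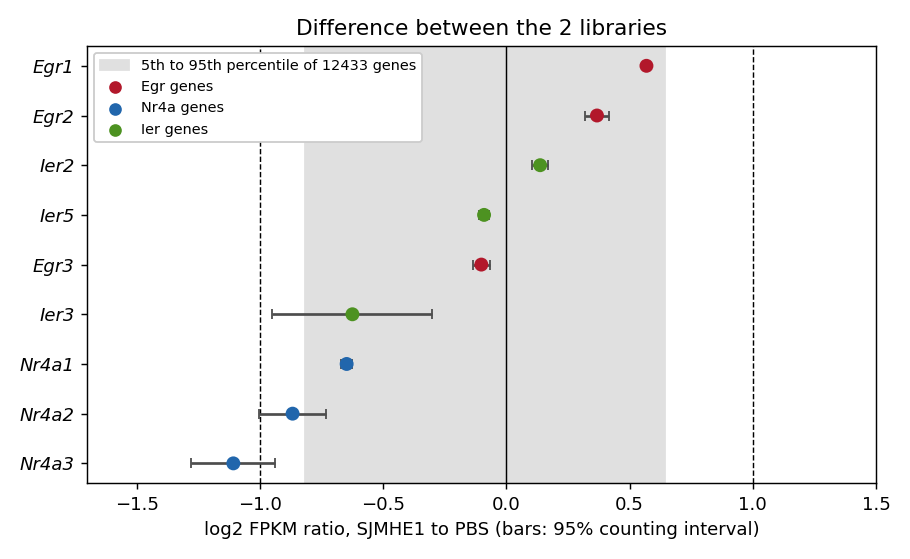
Log2 FPKM ratio of the 9 genes, SJMHE1 library to PBS library, in order of their ratio, with bars for the 95% counting interval, dashed lines at -1 and 1 and a grey band from the 5th to the 95th percentile of 12433 genes. Nr4a2 and Nr4a3 lie left of the band, which is not matched to level, and Nr4a3 alone lies beyond -1.

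**Figure D4:**
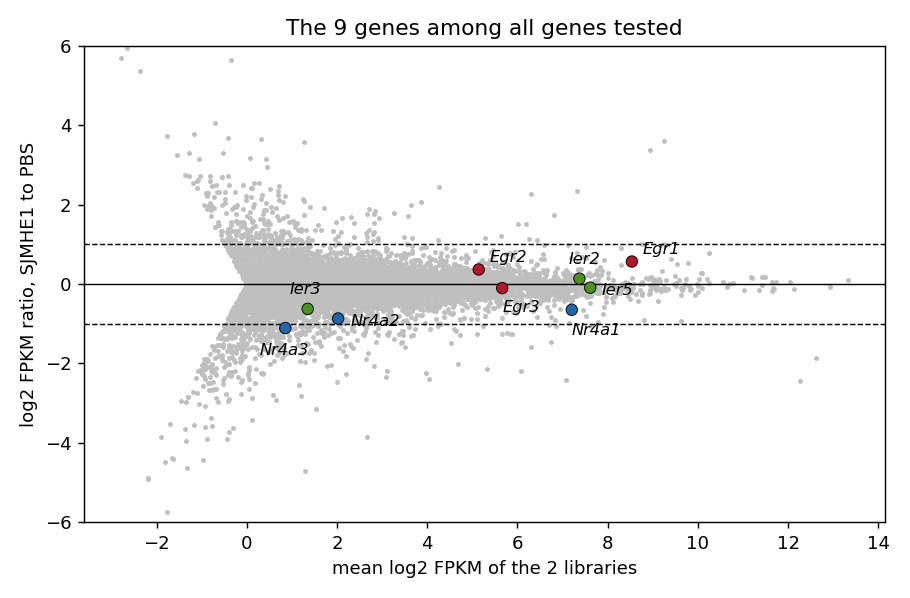
Log2 FPKM ratio (y axis) against the mean log2 FPKM of the 2 libraries (x axis) for all genes tested in grey and the 9 genes in colour, with dashed lines at -1 and 1; 3 genes lie beyond the limits of 6 of the y axis. Egr1 lies above and Nr4a1 below most genes of like level.

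Ratios between members of 1 library do not depend on how the libraries were scaled. Across families they were taken for the Egr genes to Nr4a1 alone. Egr1 stood at 1.65 times the FPKM of Nr4a1 for PBS and 3.84 times for SJMHE1. The log2 difference between these ratios was 1.22, with an interval of 1.19 to 1.24 from a normal approximation of the counting error. For Egr2 the ratio to Nr4a1 was 0.168 for PBS and 0.34 for SJMHE1, a difference of 1.02 [0.96 to 1.07], and for Egr3 it was 0.284 and 0.415, a difference of 0.55 [0.50 to 0.59]. Ratios were also taken for 5 pairs within a group of genes. Egr1 was 9.82 and 11.3 times as high as Egr2, a difference of 0.20 [0.15 to 0.25], and 5.82 and 9.25 times as high as Egr3, a difference of 0.67 [0.63 to 0.71]. This last difference, within the Egr family, was larger than that of Egr3 to Nr4a1. Nr4a1 was 33.6 and 39.2 times as high as Nr4a2, a difference of 0.22 [0.08 to 0.35], and 69.7 and 95.8 times as high as Nr4a3, a difference of 0.46 [0.29 to 0.63]. Ier2 reached 0.783 of the level of Ier5 for PBS and 0.916 for SJMHE1, a difference of 0.23 [0.19 to 0.27].

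The relatives and direct partners of these proteins went in both directions. The list held 6 genes, of which 4 passed the filter, 0 were past the threshold, 2 were above 0 and 2 below, and the median log2 ratio was 0.00. Nab1 and Nab2, corepressors that bind EGR proteins, stood at 16.28 and 11.29 FPKM in the PBS library and at 17.22 and 12.29 in the SJMHE1 library. Egr4, the fourth member of the Egr family, was at 2.03 and 1.63, a log2 ratio of -0.32 [-0.59 to -0.04]. Rxrb, which encodes a retinoid X receptor, the partner of Nr4a1 and Nr4a2 in binding DNA, was at 18.6 and 17.6. Rxra, at 0.73 and 0.55 (-0.41 [-0.68 to -0.14]), and the Ier5 relative Ier5l, at 0.61 and 0.66, were below the filter.

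The factors and kinases that act upstream of early response genes showed no common direction. All 16 passed the filter, 0 were past the threshold, 10 were above 0 and 6 below, and the median log2 ratio was 0.04. The highest ratios were those of Elk1, an SRF partner that ERK phosphorylates, at 3.11 and 4.61 FPKM (0.57), and of Creb1, which encodes CREB, at 9.38 and 12.24 (0.38). The lowest were those of Mapk3, which encodes ERK1, at 16.57 and 11.61 (-0.51), and of Mef2d, a MEF2 factor, at 52.71 and 42.01 (-0.33). Srf itself was at 21.63 and 22.03. These are RNA levels, and the activity of such factors is set mainly by phosphorylation.

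Among 35 other immediate early genes, ratios lay on both sides of 0, with most below it. None was higher past the threshold and 9 were lower (25.7%), beside 2.43% higher and 3.57% lower over all genes tested. Of the 35, 9 were above 0 and 26 below, and the median log2 ratio was -0.21. The highest were Fos, at 731.15 FPKM for PBS and 1050.32 for SJMHE1 (0.52), and Jun, at 619.94 and 880.3 (0.51), which encode the subunits of AP-1 and stood near the ratio of Egr1. The lowest were Fosl2, at 2.22 and 0.65 (-1.77), and Dusp5, a phosphatase that inactivates nuclear ERK, at 19.46 and 7.9 (-1.30). The other 7 past the threshold, named after their values had been seen, were Sik1, Atf3, Pim1, Klf10, Maff, Rgs1 and Bhlhe40, with ratios from -1.25 to -1.18. They lay below Nr4a3 in ratio.

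Heat shock genes had the highest median of the lists compared. Of 10 genes, 7 were higher past the threshold and all 10 were above 0, with a median log2 ratio of 1.90. The inducible chaperones Hspa1a and Hspa1b stood at 152.69 and 175.67 FPKM in the PBS library and at 1597.97 and 2127.31 in the SJMHE1 library (3.39 and 3.6). The lowest ratios of the list were those of Hsp90ab1 (0.63) and Hsp90aa1 (0.91). Ier5, whose protein promotes the activity of heat shock factor HSF1, had its log2 ratio of -0.09 beside these values. The part of the heat shock response in the ratios of the early response genes was not tested. The 9 housekeeping genes had a median of -0.10, with 0 past the threshold.

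**Figure D5:**
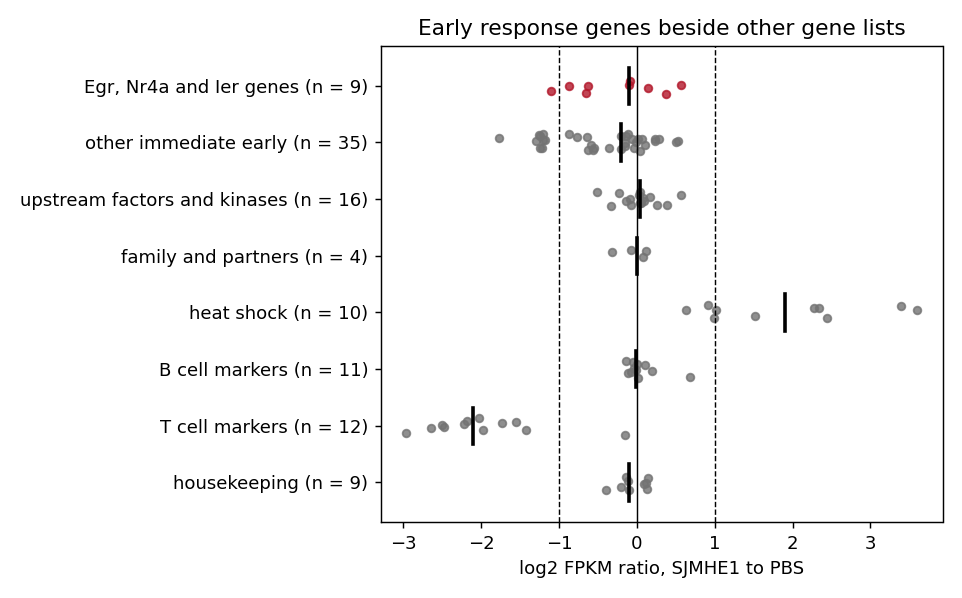
Log2 FPKM ratio of each gene tested (points) and the median (bar) of the 9 Egr, Nr4a and Ier genes and of 7 other lists, with dashed lines at -1 and 1. The 9 genes and the other immediate early genes spread to both sides of 0, with most of the latter below it. The heat shock genes lie to the right and the T cell markers, Lck apart, to the left.

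For 1 member of each group, the protein-coding genes nearest in level over the 2 libraries were sought, by the distance between log2 FPKM values. With 2 libraries such likeness says little more than that the levels are alike. Nearest to Egr1 was Rpl23a, a ribosomal protein gene, at 354.71 FPKM for PBS and 395.95 for SJMHE1 (distance 0.29), followed by Shisa5 and H2-Aa (both 0.40). Nr4a1 had Atf4, a stress response transcription factor, as its nearest gene, at 169.86 and 123.88 (0.14), followed by Sh3bgrl3 (0.18) and Ezr (0.28). Closest to Ier2 were H2-Q6, at 154.71 and 180 FPKM (0.059), Dusp2, another immediate early gene (0.11), and Hnrnph1 (0.13). The nearest gene of Egr1 was further away than that of Nr4a1 or Ier2.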

How the data were processed

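RNA of sorted splenic B cells, mixed from 3 mice per group, was sequenced from rRNA-depleted libraries. The submitters' processing notes name bcl2fastq 2.0, HISAT2, StringTie, DESeq2, limma and the mm10 build. Their roles and most versions, and whether counting used strand, are not given in the sources used here. The deposited counts are raw whole numbers, 1 per gene and library. The deposited FPKM values scale these counts by length and library size and are rounded to 2 decimals. The 2 columns of per-sample values whose names match no sample were not used, so no comparison with the Control group was made.

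The difference between libraries was the log2 ratio of FPKM, SJMHE1 to PBS, without a pseudocount, for genes that reached 1 FPKM in either library and were above 0 in each. The threshold was a log2 ratio above 1 or below -1. With 1 library per group, edgeR's test for counts, which needs replicates, could not be fitted; edgeR 4.0.16 in R 4.3.3 supplied TMM factors for an alternative. Intervals are the 95% Clopper-Pearson interval of the 2 counts, moved to the FPKM scale, or for a single level the exact Poisson interval. On simulated counts for this comparison, 100% of 200 changed genes passed the threshold, 0 of 11423 unchanged genes did, and 95.3% of 11623 true ratios lay within their interval. The simulation held counting error only, left out genes of few counts and planted changes well beyond the threshold. It checks the calculation and gives no rate of false calls between pools of mice. Python 3.11.15, pandas 2.3.3 and scipy 1.17.1 were used.

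The 9 genes and the gene lists were chosen with earlier results of these data known. The genes named are the 9 genes, the 2 highest and 2 lowest of a list where its genes are described, Hspa1a, Hspa1b, all relatives and partners, the 3 nearest genes of Egr1, Nr4a1 and Ier2, and the genes that carry a list's total or check the cell type. Srf and the 7 further immediate early genes past the threshold fall outside this rule and were named after their values had been seen. Gene coordinates are those of the table. They equal those of GENCODE M21 on GRCm38 for 7 of the 9 genes, with the ends of Nr4a3 and Ier2 differing by 2 bases, and no gene of the table overlaps 1 of the 9. Exon numbers are those of 1 coding transcript per gene. Promoter sequences are from RefSeq. An item of the B cell list is not reported here and was left out of that list.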

Additional observations from a re-analysis of the deposited data

How the results depend on the processing

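The sign of each of the 9 ratios was the same under every alternative tried. Their ranges were 0.56 to 0.65 for Egr1, 0.36 to 0.45 for Egr2, -0.11 to -0.018 for Egr3, -0.65 to -0.56 for Nr4a1, -0.87 to -0.69 for Nr4a2, -1.11 to -0.71 for Nr4a3, 0.13 to 0.22 for Ier2, -0.63 to -0.45 for Ier3 and -0.096 to -0.0073 for Ier5. The count of these genes past the threshold went from 1 to 0 with a pseudocount of 1, which shrinks the ratio of a gene of low level such as Nr4a3, and to 0 when 5 FPKM had to be reached in either library, which leaves 7 of the 9 genes. Their median was -0.018 with FPKM rescaled to the same sum in both libraries, a step that adds 0.083 to every ratio. Of all genes, 746 were past the threshold, 302 of them higher. The count was 246 of 12433 with a pseudocount of 1 (100 higher) and 3385 of 20426 without a filter on low values (1367 higher). Where both libraries had to reach 1 FPKM, it was 252 of 11366 (101 higher). Where either had to reach 5 FPKM, it was 145 of 7352 (52 higher). Among protein-coding genes it was 260 of 9900 (89 higher). A pseudocount of 0.1, centring on the median, CPM and TMM factors gave between 661 and 746 and left 1 of the 9 genes past the threshold. The alternatives for comparisons with the Control group were not run.

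No paired analysis was possible because a group is 1 pooled library, and no library was left out for the same reason. Depth limits Ier3, Nr4a2 and Nr4a3, with 135 to 1225 counts per library, while the other 6 genes had at least 5796. The intervals leave out the variation between mice and libraries, which these data do not measure.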
